A study of Mus musculus with 4 samples.

Results

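Saa3-high macrophages of the malignant pleural effusion of mice were chosen from single-cell counts by a fixed rule. A cell had at least 1000 UMIs (unique molecular identifiers, each standing for 1 captured RNA molecule), at least 200 genes and at most 10% of its UMIs in mitochondrial genes. It had at least 1 UMI of Csf1r, the receptor for the main macrophage growth factor, and at least 100 Saa3 UMIs per 10000 UMIs. It had at most 1 UMI of Vcan, under 5 UMIs of Lyve1 per 10000 and under 3 UMIs of Cd163 plus Ccl24 per 10000, gates set to keep out recruited monocytes and resident-type macrophages. The rule found 263 cells among 9001 Csf1r cells and 13578 kept cells of all kinds. The measured levels of these 6 genes chose the cells, so their levels and the numbers of cells are descriptions.

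The effusions came from C57BL/6 mice carrying LLC (Lewis lung carcinoma) tumour in the pleural cavity. On day 11 each mouse received an intrapleural dose of LNP-cGAMP plus anti-PD-L1 (the combination, 1 µg and 30 µg), LNP-cGAMP alone (1 µg), anti-PD-L1 alone (30 µg, antibody clone 10F.9G2) or PBS as control. Fluid was taken on day 13, 48 h later, red cells were lysed, cells of 3 mice were pooled for each treatment, and 4000 cells of each pool were loaded for 10x Genomics 3' sequencing. Each treatment is therefore 1 library with no replicate check, no test between treatments or cell classes was possible, and every interval below is a 95% interval for counting error only.

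Saa3 encodes serum amyloid A3, which mouse macrophages and other cells outside the liver make in inflammation, as a local member of the acute-phase response. Cyclic GMP-AMP (cGAMP) is the messenger that activates STING, an adaptor in the endoplasmic reticulum, and lipid nanoparticles (LNP) carry it into phagocytes. STING activation turns on interferon genes and inflammatory genes in macrophages, and anti-PD-L1 blocks the ligand of an inhibitory receptor of T cells.

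Saa3 (ENSMUSG00000040026) is a protein-coding gene on the minus strand of chromosome 7 of GRCm38, from 46711998 to 46715700. Ecm1 (ENSMUSG00000028108) lies on the minus strand of chromosome 3 from 95734147 to 95739569, and Slpi (ENSMUSG00000017002) on the minus strand of chromosome 2 from 164354070 to 164389095. The promoters of these 3 genes are shown because Saa3 defines the cells, Ecm1 stood above both sets of other cells in both LNP-cGAMP libraries, and Slpi was the highest gene after Saa3 against gate-matched cells. They run from 250 to 25 bases before the RefSeq start, 5′ to 3′ on the gene's strand, from RefSeq on GRCm38.p6, at chr7:46715701-46715926, chr3:95739594-95739819 and chr2:164356532-164356757. Capitals mark matches to 5 short motifs searched on both strands of the window, for C/EBP (TTGCNNAA), NF-kB (GGGA, any 1 base, then TTTCC), ISRE, the interferon-stimulated response element (GAAA, any 2 bases, then GAAA), GAS, the gamma-activated site (TTCNNNGAA), and the TATA box, with letters TATAAA.
Saa3: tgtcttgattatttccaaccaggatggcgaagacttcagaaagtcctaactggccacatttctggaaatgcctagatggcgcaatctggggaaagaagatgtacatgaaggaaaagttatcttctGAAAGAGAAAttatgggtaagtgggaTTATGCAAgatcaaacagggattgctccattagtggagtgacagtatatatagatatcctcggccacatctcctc
Ecm1: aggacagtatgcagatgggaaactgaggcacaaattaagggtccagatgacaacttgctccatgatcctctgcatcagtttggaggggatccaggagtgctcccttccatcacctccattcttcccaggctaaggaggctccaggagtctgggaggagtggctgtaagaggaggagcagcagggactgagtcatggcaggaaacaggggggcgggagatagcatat
Slpi: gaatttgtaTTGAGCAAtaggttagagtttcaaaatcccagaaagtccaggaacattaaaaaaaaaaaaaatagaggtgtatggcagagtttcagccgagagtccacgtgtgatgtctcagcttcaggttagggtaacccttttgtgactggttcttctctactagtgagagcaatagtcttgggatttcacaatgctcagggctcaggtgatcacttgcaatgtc
The Saa3 window held a C/EBP match 99 to 92 bases before the start, read TTATGCAA on the gene's strand, and an ISRE match 125 to 116 bases before it, GAAAGAGAAA. Slpi held a C/EBP match 241 to 234 bases before its start, and none of the 5 was matched in the Ecm1 window. Of 32851 RefSeq windows of the same length, 8.95% held a C/EBP match, 0.338% an NF-kB match, 2.69% an ISRE match, 6.40% a GAS match and 11.0% a TATA match. A match describes letters and not a bound site, and no match says only that these letters are not in this window. Of 11 genes looked up, RefSeq promoters were found for 8.

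The combination library held 132 Saa3-high macrophages among 2626 Csf1r cells (5.03%, exact Clopper-Pearson interval 4.22 to 5.93) and the LNP-cGAMP library 118 among 2310 (5.11%, 4.25 to 6.09). The anti-PD-L1 library held 11 among 2241 (0.491%, 0.245 to 0.877) and the PBS library 2 among 1824 (0.110%, 0.0133 to 0.396). Both libraries with LNP-cGAMP thus stood above both without it, and their intervals overlapped each other. Read over the Csf1r cells past the Vcan, Lyve1, Cd163 and Ccl24 gates alone, the shares were 15.2%, 13.0%, 2.95% and 0.521% in the same order of libraries. As a background, neutrophils without Csf1r, which should hold little Saa3, reached 100 Saa3 UMIs per 10000 in 2 of 467 combination cells (0.428%), 8 of 817 LNP-cGAMP cells (0.979%), 3 of 741 anti-PD-L1 cells (0.405%) and 2 of 668 PBS cells (0.299%). Those neutrophils had median depths of 2507, 2435, 2287 and 2119 UMIs, far under the 23770, 23044, 36350 and 26648 UMIs of Saa3-high macrophages. The shares to set beside these neutrophils are those of all Csf1r cells with Saa3 at the minimum and no other gate, which were 17.2% in the combination and 20.3% in LNP-cGAMP. The anti-PD-L1 library gave 0.937% (0.581 to 1.43) and the PBS library 0.384% (0.154 to 0.789). The interval of PBS holds its neutrophil share and that of anti-PD-L1 lies above its own. Those neutrophil shares rest on 2 and 3 cells, and their own counting error is left out of this reading. The 11 and 2 cells of those libraries are described below with their values only.

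**Figure D1:**
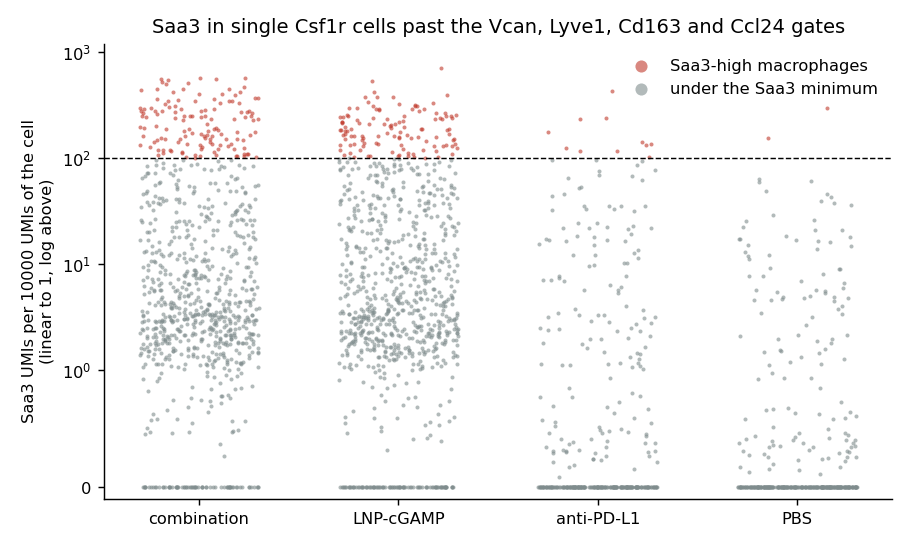
Saa3 UMIs per 10000 UMIs (vertical axis, linear to 1 and logarithmic above) in each Csf1r cell past the Vcan, Lyve1, Cd163 and Ccl24 gates, by library, with 1 point per cell and the dashed line at the minimum of 100. The 132 and 118 red points of the combination and LNP-cGAMP lie at the top of a continuous spread, against 11 and 2 in anti-PD-L1 and PBS.

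Saa3 itself showed no gap at the minimum. Cells just inside it, from 100 to 120 per 10000, numbered 21 in the combination and 18 in LNP-cGAMP, and cells just outside, from 80 to 100, numbered 16 and 25. Among Saa3-high macrophages Saa3 ran from 100 to 577 per 10000 with a median of 200 in the combination, and from 101 to 719 with a median of 183 in LNP-cGAMP. The 11 cells of anti-PD-L1 ran from 102 to 434 and the 2 cells of PBS had 154 and 298. Vcan took away more Saa3-high cells than any other gate. Of all Csf1r cells with Saa3 at the minimum, 291 of 451 in the combination (64.5%) and 319 of 469 in LNP-cGAMP (68.0%) had 2 or more UMIs of Vcan, a matrix proteoglycan made by monocytes. Saa3 was also in free RNA: barcodes with 10 to 100 UMIs held 3592 CPM (UMIs of a gene scaled to a total of 1000000) in the combination library, 5457 in that of LNP-cGAMP, 1031 in that of anti-PD-L1 and 1046 in that of PBS, against 22101, 19819, 17779 and 23454 CPM in Saa3-high macrophages.

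Facts of the libraries that bear on these cells are as follows. The 4 libraries held 68828158 to 88855120 UMIs. The median mitochondrial share of Saa3-high macrophages was 1.76% in the combination and 1.19% in LNP-cGAMP, against 2.12% and 0.999% in other Csf1r cells. From 8 to 19 barcodes were kept in both libraries of each pair, 1 of them a Saa3-high macrophage of the combination and none in both. Doublets were not removed. Sex could be read cell by cell from Xist and 4 genes of the Y chromosome, and the labels give no sex. Csf1r cells were called male in 454, 1987, 629 and 1551 cells and female in 1520, 1, 1321 and 3 cells of the combination, LNP-cGAMP, anti-PD-L1 and PBS. Since each pool holds 3 mice, sex and the individual mouse cannot be told apart.

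The label was checked against general macrophage genes and against its own markers Ecm1, Thbd, Mrap and Nupr1. All 12 general macrophage genes were measured, and their summed level was 19262 CPM in Saa3-high macrophages against 16931 in other Csf1r cells of the combination, and 18840 against 14758 in LNP-cGAMP. Ecm1, a secreted matrix protein, and Thbd, thrombomodulin, the endothelial and myeloid receptor that redirects thrombin to protein C, were higher in both libraries over all cells. Within the sex calls of the combination neither passed the 1.5-fold limit against other Csf1r cells, with Ecm1 at 1.25 times in male-called and 1.15 times in female-called cells and Thbd at 1.03 and 1.17 times. Mrap, the accessory protein of the melanocortin 2 receptor, was higher in LNP-cGAMP alone, at 153 CPM against 65.8 in other Csf1r cells, while in the combination it had 13.2 against 19.4 CPM. Nupr1, a small nuclear stress-response protein, had 249 against 246 CPM in LNP-cGAMP and 229 against 134 CPM in the combination, where the call ended within male-called cells at 241 against 232 CPM and held within female-called ones at 207 against 103 CPM. Mrap and Nupr1 were thus each higher in 1 library only. Marker sums of other cell types were low in Saa3-high macrophages: over the T, NK, B, dendritic, LLC, mesothelial, fibroblast, eosinophil and mast, platelet and red cell lists no sum passed 51.7 CPM in the combination or 17.4 CPM in LNP-cGAMP. Among defining genes, Cd4 and Clec9a had no UMI in Saa3-high macrophages of both libraries. Neutrophil markers summed to 488 CPM in the combination and 457 CPM in LNP-cGAMP, against 1302 and 2452 CPM in other Csf1r cells. Cells with 2 or more UMIs of T, B, NK or neutrophil markers were 23 of 132 Saa3-high macrophages of the combination (17.4%) and 32 of 118 of LNP-cGAMP (27.1%), against 550 (22.1%) and 793 (36.2%) of the other Csf1r cells.

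In the combination library the share of Saa3-high macrophages differed between cells of the 2 sex calls. They were 74 of 454 male-called Csf1r cells (16.3%, 13.0 to 20.02) and 22 of 1520 female-called ones (1.45%, 0.909 to 2.18). Cells with both marks gave 7 of 91 and cells with neither gave 29 of 561. All Csf1r cells with Saa3 at the minimum made up 289 of 454 male-called cells (63.7%, 59.0 to 68.1) against 59 of 1520 female-called ones (3.88%, 2.97 to 4.98). In LNP-cGAMP, 112 of 1987 male-called cells (5.64%, 4.66 to 6.74) were Saa3-high macrophages and 443 of 1987 (22.3%, 20.5 to 24.2) had Saa3 at the minimum. Among male-called cells alone, the combination thus stood above LNP-cGAMP on both counts with intervals that did not overlap, whereas over all cells the intervals of Saa3-high macrophages overlapped. In anti-PD-L1, 3 of 629 male-called Csf1r cells (0.477%, 0.0985 to 1.39) and 7 of 1321 female-called ones (0.530%, 0.213 to 1.09) were Saa3-high macrophages. The intervals of the combination and anti-PD-L1 thus overlapped among female-called cells and did not among male-called ones. The mixture touches every comparison of the combination below: 74 of its 132 Saa3-high macrophages were male-called, against 380 of 2494 other Csf1r cells. Values within the sex calls are therefore given beside several named genes.

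**Figure D2:**
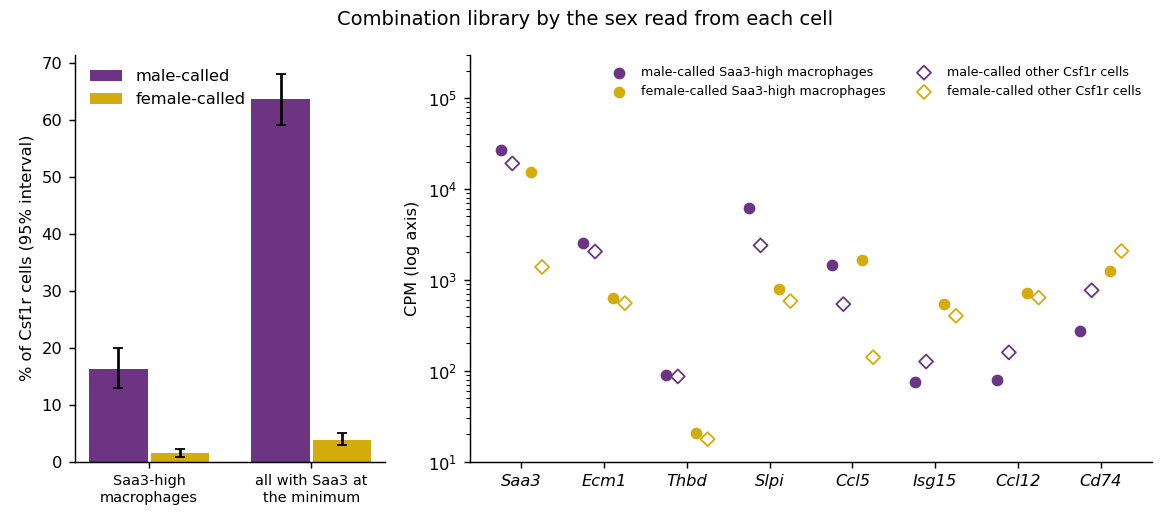
Combination library by sex call, male-called before female-called. Left, percent of Csf1r cells that were Saa3-high macrophages, and percent with Saa3 at the minimum whatever the other gates, as bars from 0 with 95% counting intervals. Right, summed UMIs as CPM on a log axis for 8 genes, filled circles for Saa3-high macrophages and open diamonds for other Csf1r cells. The male-called bars stand at 16.3% and 63.7%, against 1.45% and 3.88%, and male-called other Csf1r cells already hold 19063 CPM of Saa3 against 1388 CPM in female-called ones.

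Levels were compared as UMIs summed over cells, and a gene counts as called when its log2 ratio of (CPM + 10) is at least 1.5-fold either way and it had at least 20 UMIs over both sides and at least 50 CPM on 1 side. Against all other Csf1r cells of the same library, 141 of 3115 genes (4.53%) were higher and 154 (4.94%) lower in Saa3-high macrophages of the combination, and those of LNP-cGAMP had 135 of 3172 higher (4.26%) and 150 lower (4.73%). Within male-called cells of the combination, 75 genes were higher and 38 lower, counts given without a share of the genes measured there. Against cells past the same gates with Saa3 under the minimum, here called gate-matched cells (734 in the combination, 788 in LNP-cGAMP), 200 of 3179 genes (6.29%) were higher and 233 (7.33%) lower in the combination, and the LNP-cGAMP library had 187 of 3237 higher (5.78%) and 241 lower (7.45%). With TMM scaling in place of totals the counts against gate-matched cells were 248 higher and 175 lower in the combination and 259 higher and 158 lower in LNP-cGAMP, and those against other Csf1r cells were 163 higher and 123 lower and 170 higher and 108 lower. That scaling raised the log2 ratios by 0.05 to 0.12, the most for gate-matched cells of LNP-cGAMP. Of genes measured against gate-matched cells in both libraries, 135 were higher in both (78.9% of those called in the combination and 75% of those called in LNP-cGAMP) and 142 were lower in both (63.1% and 67.0%). Against other Csf1r cells 69 were higher in both (58.0% and 53.9%) and 71 lower in both (51.1% and 55.9%). The rule chose the cells on values of the same cells, so these counts are a description.

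**Figure D3:**
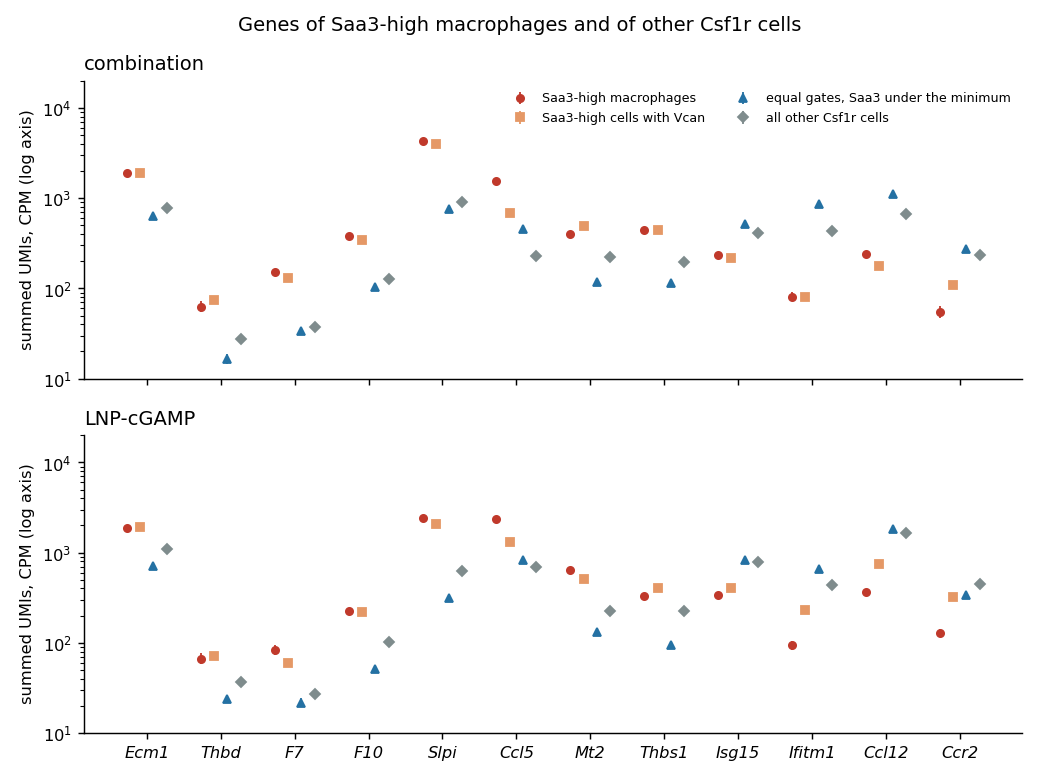
Summed UMIs as CPM on a log axis for 12 genes in the combination (top) and LNP-cGAMP (bottom), in Saa3-high macrophages, Saa3-high cells with 2 or more Vcan UMIs, gate-matched cells and all other Csf1r cells, with 95% counting intervals that are mostly smaller than the symbols. Ecm1, Thbd, F7, F10, Slpi, Ccl5, Mt2 and Thbs1 lie highest in the Saa3-high cells, and Isg15, Ifitm1, Ccl12 and Ccr2 lie lower there than in gate-matched and other Csf1r cells.

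Ecm1 and several coagulation genes were among the higher ones. Ecm1 was at 1905 CPM in Saa3-high macrophages of the combination, 1890 in those of LNP-cGAMP, 1951 in those of anti-PD-L1 and 582 in those of PBS. Other Csf1r cells had 786, 1088, 588 and 646 CPM in the same libraries, and gate-matched cells had 636 CPM in the combination and 712 in LNP-cGAMP. Saa3-high macrophages thus held 2.99 times (2.90 to 3.10) the Ecm1 of gate-matched cells in the combination and 2.66 times (2.57 to 2.74) in LNP-cGAMP. Male-called Saa3-high macrophages of the combination had 2562 CPM, against 2050 in male-called other Csf1r cells, a ratio of 1.25 (1.21 to 1.29), and 1715 CPM in male-called gate-matched cells, a ratio of 1.49 (1.41 to 1.58), both under the 1.5-fold limit. Female-called ones had 637 against 554 CPM in other Csf1r cells.

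Thbd (ENSMUSG00000074743, chromosome 2 from 148404466 to 148408188, minus strand) had 62.7 CPM in Saa3-high macrophages of the combination and 66.8 in those of LNP-cGAMP, against 27.8 and 37.0 CPM in other Csf1r cells. The ratios were 2.26 (1.94 to 2.62) and 1.81 (1.56 to 2.09). Among male-called cells of the combination Thbd had 89.7 against 86.7 CPM, a ratio of 1.03 (0.861 to 1.23), so the call ends there. It also ended in LNP-cGAMP, at a log2 ratio of 0.54 against a limit of 0.58, when cells with markers of other types and the 5% of cells with most UMIs were left out. Against gate-matched cells Thbd had a log2 ratio of 1.19 in LNP-cGAMP and 1.46 in the combination, and 0.29 among male-called cells of the combination.

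F7 and F10, coagulation factors VII and X, which the liver and some macrophages make, were higher in both libraries. F7 had 151 CPM in Saa3-high macrophages of the combination and 83.2 in those of LNP-cGAMP, against 37.6 and 27.2 CPM in other Csf1r cells. F10 had 383 and 228 CPM, against 127 and 103. Both genes were past the limit among male-called cells of the combination, at 1.75 times for F7 and 1.71 times for F10. Among female-called cells F7 was at 2.87 times, and F10 at 1.35 times, under the limit. Of the coagulation and fibrinolysis list of 18 genes, 8 were measured against gate-matched cells in the combination and 9 in LNP-cGAMP. In the combination 5 were higher, among them Thbd, F7, F10 and Serpinb2, and none lower, and in LNP-cGAMP 6 were higher, the same 4 among them, and none lower. The list's median log2 ratio was 1.29 and 1.36, against −0.11 and −0.12 over all genes measured, of which 6.29% and 5.78% were higher. Against all other Csf1r cells of the combination F13a1, the A chain of factor XIII, was lower at 82.7 against 233 CPM.

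Slpi, the secreted leukocyte protease inhibitor, had 4290 CPM in Saa3-high macrophages of the combination, 2436 in those of LNP-cGAMP, 11315 in the 11 of anti-PD-L1 and 113 in the 2 of PBS, against 914, 625, 890 and 370 CPM in other Csf1r cells. Lcn2, lipocalin 2, an iron-siderophore trap of the acute phase, had 860 and 282 CPM in Saa3-high macrophages of the combination and LNP-cGAMP, against 118 and 112 CPM in other Csf1r cells. In LNP-cGAMP its direction turned to a log2 ratio of −0.69 when each cell was weighted equally and −0.24 without the mixed-marker and highest-UMI cells. Of the 14 acute-phase genes listed, 6 were measured, among them Saa3 itself, whose higher level was set by the rule. Over all genes measured against gate-matched cells, 6.29% were higher in the combination and 5.78% in LNP-cGAMP. Of the 6 acute-phase genes, 6 were higher in the combination and 5 in LNP-cGAMP, with Hp (haptoglobin) and Lrg1 among them. C3, the central complement protein, made the difference, with 144 against 71.0 CPM in the combination and 117 against 118 CPM in LNP-cGAMP. Within male-called cells of the combination the direction of C3 turned, at 146 against 195 CPM (0.751 times, 0.621 to 0.910). The list's median, with Saa3 counted, was a log2 ratio of 1.87 and 0.84. Hp had 503 against 355 CPM within male-called cells (1.42 times, under the limit) and 46.2 against 101 CPM within female-called ones, and Lrg1 had 577 against 124 CPM and 20.7 against 154 CPM. With each cell weighted equally, Hp turned to log2 ratios of −0.46 in the combination and −0.53 in LNP-cGAMP and Lrg1 to −0.0004 and −1.10. Female-called Saa3-high macrophages, 22 cells, also held Slpi, Lcn2 and F10 within the limit of female-called gate-matched cells, at 0.865, 0.959 and 1.14 times their level.

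Ccl5, a chemokine for T cells and monocytes that interferon and NF-kB induce, had 1547 CPM in Saa3-high macrophages of the combination and 2372 in those of LNP-cGAMP, against 229 and 690 CPM in other Csf1r cells and 454 and 834 CPM in gate-matched cells. It was the only gene of the T and NK cell chemokine list higher in both comparisons of both libraries. Male-called cells of the combination gave 2.72 times (2.59 to 2.86) and female-called cells 11.6 times (10.9 to 12.4) the level of other Csf1r cells. Gpnmb, a glycoprotein of lipid-laden and lysosome-rich macrophages, had 142 and 188 CPM in Saa3-high macrophages, against 26.7 and 61.8 CPM in other Csf1r cells. Mt1 and Mt2 encode metallothioneins, small zinc-binding proteins induced by metals and inflammation. Mt1 had 1554 CPM in Saa3-high macrophages of the combination and 1825 in those of LNP-cGAMP, against 959 and 828 CPM in other Csf1r cells, but within the combination it was at 0.913 times in male-called and 0.990 times in female-called cells. Mt2 had 407 CPM in Saa3-high macrophages of the combination and 649 in those of LNP-cGAMP, against 222 and 228 CPM in other Csf1r cells. Among male-called cells of the combination Mt2 had 425 against 472 CPM in other Csf1r cells and 170 CPM in gate-matched cells, so the higher call held there against gate-matched cells alone. Female-called cells had 322 against 189 CPM in other Csf1r cells. Thbs1, the matrix protein thrombospondin 1, and Chil3, a chitinase-like protein of monocytes and macrophages, were higher than in gate-matched cells, with 441 against 115 and 1456 against 472 CPM in the combination and 326 against 95.5 and 1124 against 311 CPM in LNP-cGAMP. Within female-called cells of the combination both were lower, at 0.448 and 0.207 times gate-matched cells. Of 18 matrix and protease genes, 11 and 12 were measured against gate-matched cells, with 7 higher and 1 lower in the combination and 6 higher and 2 lower in LNP-cGAMP. Over all genes measured there, 6.29% and 5.78% were higher and 7.33% and 7.45% lower.

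Ctla2b, an inhibitor of cysteine proteases, had 238 CPM in Saa3-high macrophages of the combination and 164 in those of LNP-cGAMP, against 35.2 and 18.7 CPM in gate-matched cells. Within the combination it was at 6.00 times gate-matched cells in male-called and 0.995 times in female-called cells. Rgs1, a regulator of G-protein signalling, had 104 and 65.6 CPM, against 17.8 and 18.5 CPM in other Csf1r cells. Its ratio within the combination was 2.85 in male-called and 0.841 in female-called cells. Arg1, arginase 1, had 3510 and 2736 CPM, against 3247 and 1583 CPM in other Csf1r cells, so it was called in LNP-cGAMP alone. Nos2, inducible nitric oxide synthase, was under the 50 CPM minimum on both sides, at 36.5 and 14.1 CPM against 8.27 and 12.7 CPM. None of the 9 measured NF-kB target genes was called in either direction in any of the 4 comparisons, with medians of 0.15 and −0.08 in the combination and LNP-cGAMP against other Csf1r cells. No housekeeping gene of 12 was called against gate-matched cells in either library. Of 15 glycolysis genes, Pkm was lower in the combination and none was called in LNP-cGAMP. Over all genes measured in the 4 comparisons, 4.26% to 6.29% were higher and 4.73% to 7.45% lower. Few or no calls among 9, 12 or 15 genes lie near those shares and are not a result about these lists.

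Among interferon-induced genes more were lower than higher over all cells. In the combination and LNP-cGAMP, 7.33% and 7.45% of all genes measured against gate-matched cells were lower and 6.29% and 5.78% higher. Against gate-matched cells, 1 of 30 type I interferon genes was higher and 6 lower in the combination (median −0.41), and 1 of 34 was higher and 8 lower in LNP-cGAMP (median −0.37). Lgals3bp, a secreted glycoprotein, was the higher one in both. Isg15, a ubiquitin-like modifier induced by interferon, had 235 CPM in Saa3-high macrophages of the combination and 335 in those of LNP-cGAMP, against 517 and 823 CPM in gate-matched cells. Within the combination Isg15 was at 0.592 times gate-matched cells in male-called and 1.11 times (0.987 to 1.23) in female-called cells, so it was not lower in the latter. Against other Csf1r cells it was at 0.60 times in male-called and 1.33 times in female-called cells. The list of genes induced by interferon gamma had 10 of 15 lower in the combination and 3 of 15 in LNP-cGAMP, with none higher (medians −0.70 and −0.42). Gate-matched cells of the combination were 55 male-called and 421 female-called, against 74 and 22 Saa3-high macrophages. Within male-called and female-called cells, Gbp2b was at 0.833 and 0.806 times gate-matched cells, both within the 1.5-fold limit. Iigp1 was at 0.347 and 1.03 times. The part of the sex mixture in the list counts was not tested. Tmem173, which encodes STING, had 64.6 and 85.2 CPM in Saa3-high macrophages, against 136 and 155 CPM in gate-matched cells. Of the MHC class I pathway, 5 of 17 genes were lower in the combination and 7 of 18 in LNP-cGAMP, immunoproteasome subunits Psmb8 and Psmb9 in both, and none was higher. Cd274, which encodes PD-L1, had 125 and 158 CPM, against 174 and 212 CPM in gate-matched cells, within the 1.5-fold limit.

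Monocyte chemokines and monocyte genes made up a lower group. Ccl12, a ligand of Ccr2 in mice, had 242 CPM in Saa3-high macrophages of the combination and 369 in those of LNP-cGAMP, against 1116 and 1810 CPM in gate-matched cells. Ccl2 and Ccl7, further Ccr2 ligands, were lower as well, with 628 against 1064 and 730 against 1706 CPM in the combination and 1062 against 1642 and 738 against 2015 CPM in LNP-cGAMP. Within male-called cells of the combination Ccl2, Ccl7 and Ccl12 were at 0.477, 0.475 and 0.634 times gate-matched cells, and within female-called ones Ccl2 and Ccl7 were at 1.01 and 1.02 times and Ccl12 at 0.667 times. Against other Csf1r cells female-called Ccl7 was higher, at 1.52 times. Of 8 measured myeloid chemokines, 4 were lower and none higher in each library. Over all genes measured against gate-matched cells, 7.33% were lower in the combination and 7.45% in LNP-cGAMP. Ccl8, a further chemokine, was at 1.18 times gate-matched cells within male-called and 1.67 times within female-called cells of the combination. Ccr2, the receptor that brings monocytes out of the marrow, had 55.3 and 129 CPM, against 236 and 445 CPM in other Csf1r cells. Its ratio was 0.42 among male-called and 0.18 among female-called cells of the combination. Ifitm1, an interferon-inducible membrane protein, had 81.4 and 93.8 CPM against 438 and 433 in other Csf1r cells, though within male-called cells of the combination its log2 ratio was −0.48 and the call ended, and Magohb, a subunit of the exon junction complex, 48.8 and 62.0 CPM against 130 and 158. Of the proliferation list, 9 of 9 measured genes were lower against gate-matched cells in the combination and 6 of 7 in LNP-cGAMP (medians −0.94 and −0.75).

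Genes of neutrophils were lower at full depth, and their ratios shrank without the gate-matched cells that carried neutrophil marks. S100a8 and S100a9, which together make calprotectin, had 183 and 158 CPM in Saa3-high macrophages of the combination, against 1946 and 2098 CPM in gate-matched cells, and 140 and 139 CPM in those of LNP-cGAMP against 2509 and 2750 CPM. Retnlg, a resistin-like protein of neutrophils, had 8.72 and 24.1 CPM against 234 and 486 CPM. When Csf1r cells with neutrophil marks (Csf3r and S100a8 plus S100a9) were left out, the log2 ratio of S100a8 moved to −0.45 in the combination and −0.16 in LNP-cGAMP, and its calls ended. Those cells are chosen by S100a8 and S100a9 themselves, so smaller ratios of these 2 genes follow from leaving them out. S100a9 moved to −0.66 and −0.34 and Retnlg to −0.61 and −0.90, so S100a9 in the combination and Retnlg in both libraries were still called. Against other Csf1r cells of the combination, S100a8 and S100a9 turned to log2 ratios of 0.12 and 0.31 within male-called cells. Il1b, the inflammatory cytokine, kept log2 ratios of −0.76 and −1.66 without those cells. Gzmb, granzyme B of killer cells, was at 36.8 and 19.3 CPM against 360 and 532 CPM, and its log2 ratios moved to −0.14 and −0.25 when cells with markers of other types and the highest UMIs were left out.

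MHC class II genes, which present peptides to CD4 T cells, went opposite ways against all other Csf1r cells. In the combination, 6 of 7 measured genes were lower and none higher (median −0.91), and in LNP-cGAMP 2 were higher and none lower (median 0.31). Over all genes measured, 4.94% were lower in the combination and 4.26% higher in LNP-cGAMP. Cd74, the invariant chain, had 770 CPM in Saa3-high macrophages of the combination and 1190 in those of LNP-cGAMP, against 1816 and 916 CPM in other Csf1r cells and 3217 and 1437 CPM in gate-matched cells. Over all cells, other Csf1r cells thus differed more in Cd74 between the libraries than Saa3-high macrophages did. LNP-cGAMP, however, held only 1 female-called Csf1r cell. Male-called cells of the combination alone had 271 CPM in Saa3-high macrophages and 769 CPM in other Csf1r cells. Set beside the values of LNP-cGAMP, these put the larger difference in Saa3-high macrophages. Within male-called cells of the combination Cd74 was at 0.35 times, and within female-called cells at 0.61 times, other Csf1r cells. H2-Aa, H2-Ab1 and H2-Eb1, chains of the class II molecules, were at 0.294, 0.338 and 0.119 times within male-called cells, and at 0.830, 0.917 and 0.842 times within female-called ones, where none passed the limit. H2-Aa was 1 of the 2 higher genes of LNP-cGAMP, and after thinning to 5000 UMIs its log2 ratio there was −0.012.

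Levels of several of these genes stepped with Saa3 below the minimum as well as above it. Csf1r cells past the 3 other gates were split at 10, 30, 100 and 200 Saa3 UMIs per 10000, giving 543, 101, 90, 66 and 66 cells in the combination and 553, 111, 124, 68 and 50 in LNP-cGAMP. Ecm1 went up at each step, through 511, 734, 1101, 1467 and 2405 CPM in the combination and 498, 837, 1303, 1590 and 2323 CPM in LNP-cGAMP. Thbd went up likewise, through 14.2, 16.3, 26.4, 49.7 and 77.4 CPM and through 12.9, 34.1, 50.1, 58.8 and 78.4 CPM. Downward steps were seen in Ccl12, through 1279, 982, 513, 371 and 95.4 CPM in the combination and 2055, 1808, 1006, 425 and 288 CPM in LNP-cGAMP. Isg15 went down likewise, through 565, 439, 385, 333 and 123 CPM and through 980, 685, 430, 389 and 256 CPM. The median depth of the ranges lay between 16731 and 24057 UMIs and was lowest in the lowest range of both libraries. Its part in these steps, and that of the sexes in the combination, was not tested.

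**Figure D4:**
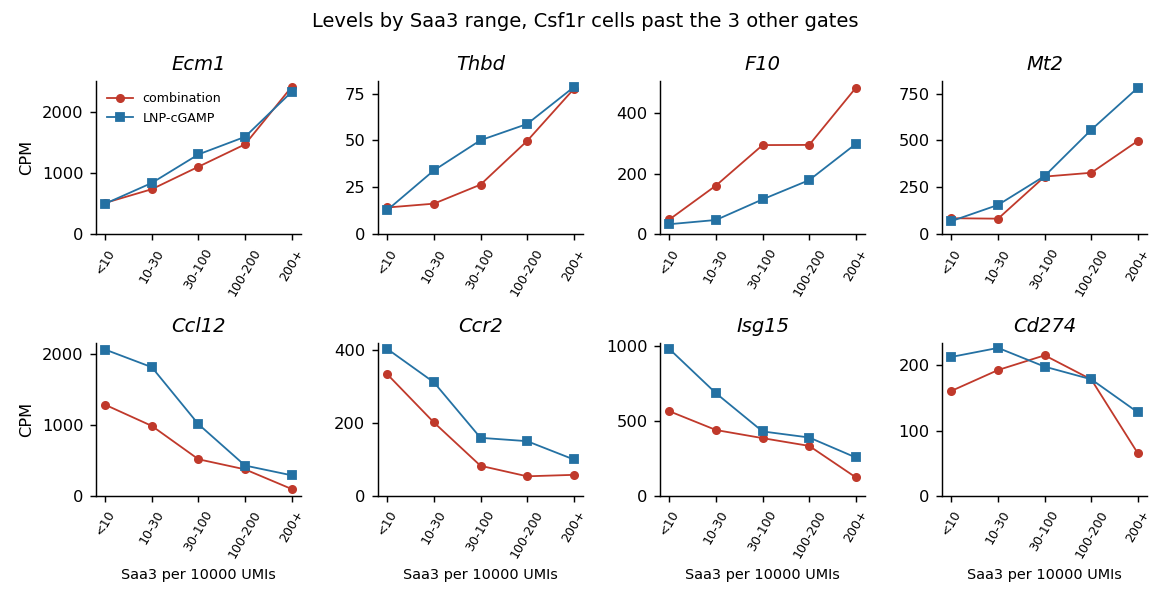
Summed UMIs as CPM (linear axes from 0) of 8 genes in 5 ranges of Saa3 per 10000 UMIs, for Csf1r cells past the Vcan, Lyve1, Cd163 and Ccl24 gates, in the combination (red circles) and LNP-cGAMP (blue squares). Ecm1 and Thbd climb over the ranges and Ccl12 and Isg15 decline in both libraries, while Cd274 is lowest in the highest range of both.

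Saa3-high macrophages held a subset with Alox15 (12/15-lipoxygenase) and Prg4 (lubricin), genes of the large resident macrophages of mouse serous cavities. With a limit of 1 UMI of both genes together per 10000, chosen after the values were seen, 35 of 132 cells of the combination (26.5%, 19.2 to 34.9), 9 of 118 of LNP-cGAMP (7.63%, 3.55 to 13.99), 9 of 11 of anti-PD-L1 and 1 of 2 of PBS belonged to it. In the combination, 31 of the 35 had 5 or more per 10000 and 4 lay between the limit and 5, while 26 cells outside the subset held some UMIs under the limit and 71 had none. In LNP-cGAMP the same counts were 8, 1, 4 and 105. Of all Csf1r cells with Alox15 and Prg4 at this limit, whatever the other gates, Saa3 reached the minimum in 84 of 159 in the combination (52.8%, 44.8 to 60.8), 24 of 29 in LNP-cGAMP (82.8%, 64.2 to 94.2), 16 of 134 in anti-PD-L1 (11.9%, 6.98 to 18.7) and 2 of 89 in PBS (2.25%, 0.273 to 7.88). In the combination 24 cells of the subset were male-called and 1 female-called, against 50 and 21 of the remaining Saa3-high macrophages.

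The subset carried much of what set the whole apart for several genes. Slpi was at 14369 CPM in it against 639 CPM in the remaining Saa3-high macrophages of the combination, and at 14139 against 902 CPM in LNP-cGAMP. Serpinb2, plasminogen activator inhibitor 2, was at 783 against 1.76 CPM and at 1054 against 13.4 CPM, and Lcn2 at 3056 against 64.7 and at 1747 against 90.5 CPM. Itga6, integrin alpha 6, was at 789 against 3.52 CPM and at 449 against 2.91 CPM. Gata6, the transcription factor of large serous-cavity macrophages in mice, was at 96.0 CPM in the combination and 55.5 CPM in LNP-cGAMP, and had no UMI in the 97 and 109 remaining cells. F7 and F10 were higher in the subset, F10 at 947 against 179 and at 790 against 154 CPM. Ccl8, a monocyte-recruiting chemokine, ran the other way at 118 against 2022 CPM and 91.5 against 1451 CPM, as did Folr2, a folate receptor of resident macrophages, at 98.4 against 948 and 44.4 against 748 CPM. Thbd was lower in the subset, at 47.4 against 68.2 CPM and 19.4 against 73.1 CPM. Ecm1 was at 3037 against 1496 CPM in the combination and close in LNP-cGAMP, at 2072 against 1866 CPM. Ctla2b was at 717 against 65.1 CPM in the combination and at 183 against 161 CPM in LNP-cGAMP.

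**Figure D5:**
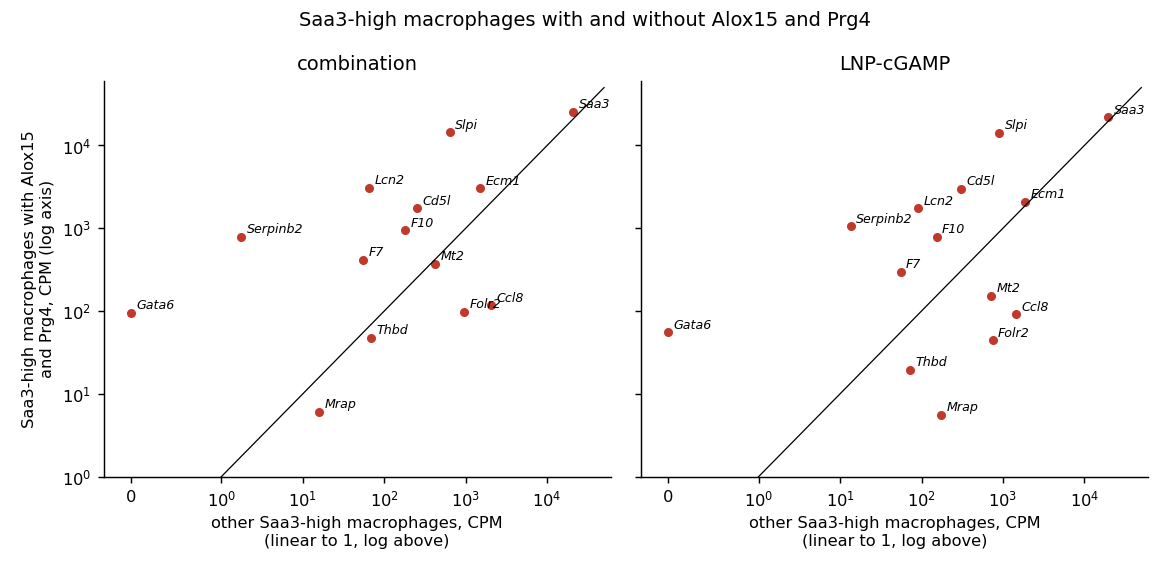
Summed UMIs as CPM of 14 genes in Saa3-high macrophages with Alox15 and Prg4 (vertical, log axis) against the remaining Saa3-high macrophages (horizontal, linear to 1 and logarithmic above), in the combination (35 against 97 cells) and LNP-cGAMP (9 against 109 cells). The line marks equal levels. Slpi, Lcn2, Serpinb2, Cd5l, F7, F10 and Gata6 lie above it and Ccl8, Folr2, Mrap and Thbd below it in both libraries.

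With cells of this kind left out of both sides, 79 genes were higher than in other Csf1r cells of the combination in place of 141, and 121 in LNP-cGAMP in place of 135. The counts of 79 and 121 are given without a share of the genes measured. The log2 ratio of Itga6 turned to −0.33 in the combination and −0.04 in LNP-cGAMP, that of Serpinb2 to −0.73 in the combination and that of Alox15 to −0.09 in LNP-cGAMP. Alox15 and Prg4 chose the cells left out, so the loss of the Alox15 ratio follows from leaving them out. Lcn2 was no longer called in either library, at 0.25 and 0.09. Rgs1 was at 0.53 in the combination, and Chil3 at 0.58 there against gate-matched cells, both under the limit. Slpi kept log2 ratios of 1.75 and 1.29, F10 of 0.91 and 0.63, Thbd of 1.07 and 0.86 and Ecm1 of 1.03 and 0.78 in the combination and LNP-cGAMP.

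Between the Saa3-high macrophages of the combination and those of LNP-cGAMP, 64 of 2996 genes (2.14%) were higher and 55 (1.84%) lower in the combination. Ecm1, Thbd and Nupr1 were not called, at log2 ratios of 0.01, −0.08 and −0.12. Mrap was lowest in the combination, at 13.2 against 153 CPM (0.0866 times, 0.0613 to 0.119). Hspb1, a small heat-shock protein, had 64.3 against 181 CPM and Gdf15, a stress-induced cytokine, 22.3 against 67.5 CPM, but both turned to higher when cells were thinned to 5000 UMIs. Prg4 had 299 against 84.8 CPM, Itga6 212 against 54.6, Lcn2 860 against 282, Fn1 (fibronectin) 412 against 116 and Fabp4 (a fatty acid binding protein) 66.6 against 17.7 CPM. Without the Alox15 and Prg4 cells, 30 genes were higher in place of 64, and Fabp4 and Lcn2 turned to lower, at log2 ratios of −0.57 and −0.43. Within male-called cells 131 genes were higher and 233 lower. The counts of 30, 131 and 233 are given without a share of the genes measured, so they cannot be read beside the 2.14% and 1.84%.

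Saa3-high macrophages were also set against Saa3-high Csf1r cells with 2 or more Vcan UMIs, a comparison added after the data were seen. In the combination 25 of 2977 genes (0.84%) were higher and 27 (0.907%) lower. The LNP-cGAMP library had 49 higher (1.62%) and 32 lower (1.06%) out of 3024 genes. Ccl5 was higher in both, at 1547 against 684 CPM and 2372 against 1312 CPM, and Lcn2 as well. Ecm1 was at 1905 against 1931 CPM in the combination and 1890 against 1905 CPM in LNP-cGAMP, and Thbd at 62.7 against 75.3 and 66.8 against 71.6 CPM. The cells that the Vcan gate removed thus held Ecm1 and Thbd at levels within the 1.5-fold limit of those in Saa3-high macrophages.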

How the data were processed

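The deposited files hold UMI counts per gene and barcode for the 4 libraries, which the file headers name as output of Cell Ranger 3.0.2 run by the authors. The genome was mm10, per the submitters' processing notes. The labels and the series text name different versions of the library kit, so none is given. Every barcode of the deposited matrices was read, cells were kept with at least 1000 UMIs, 200 genes and at most 10% mitochondrial UMIs, and 27998 genes were in the table. Doublets were not removed; leaving out cells with markers of other types and the 5% with most UMIs was an alternative. No background RNA was subtracted, except at 5% as an alternative.

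UMIs were summed over the cells of a class and divided by their total (CPM), and classes compared as log2 of (CPM + 10) ratios, with exact conditional binomial intervals on folds, exact Poisson intervals on levels and Clopper-Pearson intervals on shares. A male-called cell had UMIs of Ddx3y, Eif2s3y, Kdm5d or Uty and none of Xist, and a female-called cell the reverse. Other settings were minimums for UMIs, Saa3 and Vcan, mitochondrial limits, thinning to 5000 UMIs, a pseudocount of 1 CPM, no CPM filter, TMM scaling, equal weight per cell and male-called cells alone. The scripts were tested on simulated data.

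The class, its markers and the gene lists were chosen with earlier results of these data known. Genes named were, by the smaller log2 ratio with equal sign in both LNP-cGAMP libraries, the 12 highest and 8 lowest against other Csf1r cells and the 10 highest and 6 lowest against gate-matched cells, then the 8 highest and 5 lowest between libraries, the markers, and 2 to 4 genes of each list by level. Ribosomal, mitochondrial, haemoglobin, immunoglobulin, Xist, Y-linked and unnamed gene models were left out of these ranks. Nos2, Gata6, Folr2, Ccnd1, Trf and the genes of the Alox15 and Prg4 subset were chosen after their values were seen. Python 3.11.15, numpy 2.4.6, scipy 1.17.1, pandas 2.3.3 and matplotlib 3.10.9 were used.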

Additional observations from a re-analysis of the deposited data

Results flagged for a closer look

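Several genes and a gene list went opposite ways in the combination and in LNP-cGAMP when Saa3-high macrophages were set against other Csf1r cells, and the difference between the libraries was not tested. The median log2 ratio of the MHC class II list was −0.91 in the combination and 0.31 in LNP-cGAMP. H2-Ab1 had log2 ratios of −0.91 and 0.74 and H2-Aa of −1.07 and 0.62. Ccnd1, cyclin D1, had 55.3 CPM in Saa3-high macrophages against 114 CPM in other Csf1r cells of the combination (log2 ratio −0.93) and 68.4 against 20.5 CPM in LNP-cGAMP (1.37). Trf, transferrin, had 59.1 against 95.8 CPM (−0.61) and 89.7 against 47.3 CPM (0.80).

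Saa3 at the minimum also appeared in cells with no Csf1r UMI, which no comparison above uses. They were 48 of 922 such cells in the combination (5.21%, 3.86 to 6.84) and 102 of 1520 in LNP-cGAMP (6.71%, 5.50 to 8.09), against 3 of 1138 in anti-PD-L1 (0.264%) and 3 of 997 in PBS (0.301%). A macrophage marker was found in 44 of the 48 and 97 of the 102 cells.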

How the results depend on the processing

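No paired analysis was possible because each treatment has 1 library. Settings that leave out shared barcodes, neutrophil-marked cells or Alox15 and Prg4 cells were chosen after seeing the data. Shares of Saa3-high macrophages among Csf1r cells in the combination and LNP-cGAMP were 6.78% and 8.10% with a Saa3 minimum of 50 (1.03% in anti-PD-L1), 2.51% and 2.16% with 200 (0.134% in anti-PD-L1), 6.82% and 7.01% with Vcan under 1 per 10000, and 11.2% and 13.8% after thinning. They were 16.3% in the combination among male-called cells, and 3.93% in the combination and 0.0949% in anti-PD-L1 without Alox15 and Prg4 cells. The share in both LNP-cGAMP libraries stood above both others in every setting in which all 4 were computed. Female-called cells alone were not a setting, and among them the intervals of the combination and anti-PD-L1 overlapped.

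Counts of called genes are given as higher and lower, without the number of genes measured in each setting. With no CPM filter they were 252 and 343 in the combination and 259 and 339 in LNP-cGAMP against other Csf1r cells, 345 and 538 and 344 and 587 against gate-matched cells, 148 and 112 between the libraries, and 51 and 210 and 113 and 93 against Saa3-high Vcan cells. With a Saa3 minimum of 200 they were 243 and 337 in the combination and 270 lower in LNP-cGAMP against other Csf1r cells, 399 lower in the combination against gate-matched cells, 148 and 172 between the libraries, and 55 higher in the combination and 85 and 63 in LNP-cGAMP against Saa3-high Vcan cells. Among male-called cells they were 75 and 38 in the combination against other Csf1r cells, 131 and 233 between the libraries and 41 and 16 against Saa3-high Vcan cells. Without Alox15 and Prg4 cells 79 were higher against other Csf1r cells of the combination and 30 between the libraries. After thinning 246 were lower against other Csf1r cells of the combination, 180 lower between the libraries, and 197 and 164 and 164 and 147 against Saa3-high Vcan cells of the combination and LNP-cGAMP. TMM scaling gave 158 lower against gate-matched cells of LNP-cGAMP. Vcan under 1 per 10000 gave 101 higher between the libraries, and 87 higher in the combination and 102 and 63 in LNP-cGAMP against Saa3-high Vcan cells. Leaving out mixed-marker and highest-UMI cells gave 111 lower between the libraries and 15 lower against Saa3-high Vcan cells of the combination, and equal weight per cell 98 lower and 45 and 17.

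Directions turned as follows, as log2 ratios. The turn of Alox15 follows from the choice of the cells left out. Without Alox15 and Prg4 cells Alox15 was at −0.087 and Itga6 at −0.037 against other Csf1r cells of LNP-cGAMP, Itga6 at −0.33 and Serpinb2 at −0.73 against those of the combination, Itga6 at −0.12 in LNP-cGAMP and −0.10 in the combination and Serpinb2 at −0.057 in the combination against gate-matched cells, and F7 at −0.015, Fabp4 at −0.57, Lcn2 at −0.43 and Serpinb2 at −0.996 between the libraries. Lcn2 against other Csf1r cells of LNP-cGAMP was at −0.24 without mixed-marker and highest-UMI cells and −0.69 with equal weight, and the acute-phase median of LNP-cGAMP then was −0.00658 against other Csf1r cells and −0.53 against gate-matched cells. The matrix median of LNP-cGAMP was −0.037 against gate-matched cells with no CPM filter. After thinning Retnlg was at 1.41 and 1.40 in LNP-cGAMP against other and gate-matched cells, S100a9 at 0.28 and 0.27 in the combination, S100a8 at 0.044 in LNP-cGAMP and 0.15 in the combination against gate-matched cells, and Gdf15 at 0.18 and Hspb1 at 0.49 between the libraries. Gdf15 was at 0.24 without mixed-marker cells, Hspb1 at 0.38 with Vcan under 1 per 10000, and S100a8 and S100a9 at 0.12 and 0.31 among male-called cells. Hp was at −0.15 against other Csf1r cells of the combination with equal weight and −0.041 among male-called cells, and at −0.46 in the combination and −0.53 in LNP-cGAMP against gate-matched cells with equal weight, where Lrg1 was at −0.00041 and −1.10. Among male-called cells Mt1 was at −0.13 against other Csf1r cells and C3 at −0.39 against gate-matched cells. H2-Aa was at −0.012 against other Csf1r cells of LNP-cGAMP after thinning. The cause of these changes was not tested. Beyond these, 1645 gene ratios left their counting interval and 565 list medians moved by 0.1 or more with no called direction turned, as did the 47 counts and 13 shares above by their limits, while 2520 gene ratios, 1701 list medians, 191 counts and 35 shares stayed within them.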
